A study of Drosophila melanogaster with 52 samples.

Results

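The proteasome subunit genes were taken as every gene of the expression table whose symbol begins with Prosalpha, Prosbeta, Rpn or Rpt followed by a number. This gave 47 of the 16502 genes listed. The symbols divide them further: 15 carry a T or an R after the subunit number and are paralogs by name, and the other 32 are the canonical subunits. Only the symbol was used to choose and to divide them, never the level.

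The proteasome is the large protease of the cytosol and nucleus that destroys proteins marked with ubiquitin chains. Its core particle is a barrel of stacked rings, in which the outer rings of alpha subunits gate the entrance and the inner rings of beta subunits carry the proteolytic sites. A regulatory cap sits on the barrel: its base holds a ring of ATPases (Rpt) that unfold the substrate and scaffold subunits with ubiquitin receptors (Rpn), and its lid (also Rpn) removes the ubiquitin chain. Several core and cap subunits of Drosophila have a second gene, and a number of these paralogs are known for expression in the male germ line.

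The study asked how the DNA-binding proteins Spps and Pho recruit Polycomb group proteins, a class of transcriptional repressors, in larvae of Drosophila melanogaster. RNA-Seq measured the poly(A) RNA of their brains and imaginal discs, the precursors of adult structures, at the third larval instar. The 10 libraries analysed here were 3 of wild type (WT), 4 of Spps mutants (SppsKO) and 3 of pho mutants (PhoKO). All were described as the same tissues, although markers of other tissues varied between libraries, as given below. Per the series' design, the Spps mutants lacked the gene in mother and offspring, whereas the pho mutants lacked it in the offspring only, so product laid down by the mother was not removed. The labels name no allele, sex or age in hours for these libraries. They are also silent on whether replicate libraries stem from different crosses or dissections, so a p-value here speaks only of the library-to-library spread, some of which may be technical.

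Levels are in FPKM as deposited, that is, fragments scaled to transcript length and library size, so that genes can be compared with each other. Total depth is unknown, but the step between the lowest values gave relative depth: relative to WT 1, WT 3 was shallowest at 59.5%, followed by PhoKO 1 at 63.7%, and SppsKO 3 was deepest at 108%. Between 9269 and 9537 genes reached 1 FPKM in a library. Spps was at 12.4, 12.9 and 12.2 FPKM in the WT libraries and at 0.877, 1.04, 0.92 and 0.988 FPKM in the SppsKO libraries, so the mutants held 7.67% of the WT mean (two-sided exact permutation test, p = 0.0286, n = 4 and 3). The gene pho was at 53.7, 57.2 and 67.8 FPKM in WT and at 15.3, 18.7 and 18.3 FPKM in PhoKO, or 29.3% of the WT mean (exact permutation p = 0.1, the smallest that 3 against 3 libraries allow). Markers of the labelled tissue were present: all 14 imaginal disc genes, 11 neuronal genes and 10 glial genes listed in the table passed the expression filter, with summed disc levels of 533 to 607 FPKM over the 10 libraries.

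All canonical subunits but Prosalpha1 were expressed at a similar, high level. The 31 measured subunits lay between 117 and 356 FPKM in every library, with a WT median of 213 FPKM. Prosalpha2, an outer-ring subunit of the core, had the highest WT level at 308, 302 and 279 FPKM in WT 1, WT 2 and WT 3. Rpn13, a ubiquitin receptor of the cap, had the lowest at 137, 143 and 117 FPKM. The range from the most to the least abundant subunit was therefore narrow, and in the order of WT means each subunit overlapped its next neighbour in the WT libraries. The order still followed the structure: ranks 1 to 12 were all core subunits, and Rpn11 of the lid stood at rank 13 with a mean of 222 ± 18.4 FPKM (SD, n = 3). The remaining core subunit, Prosbeta2, followed it at 221 ± 11.8 FPKM. The scaffold subunits Rpn1 and Rpn2, the largest proteins of the base, were near the bottom at 135 ± 13.8 and 144 ± 10.7 FPKM.

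**Figure D1:**
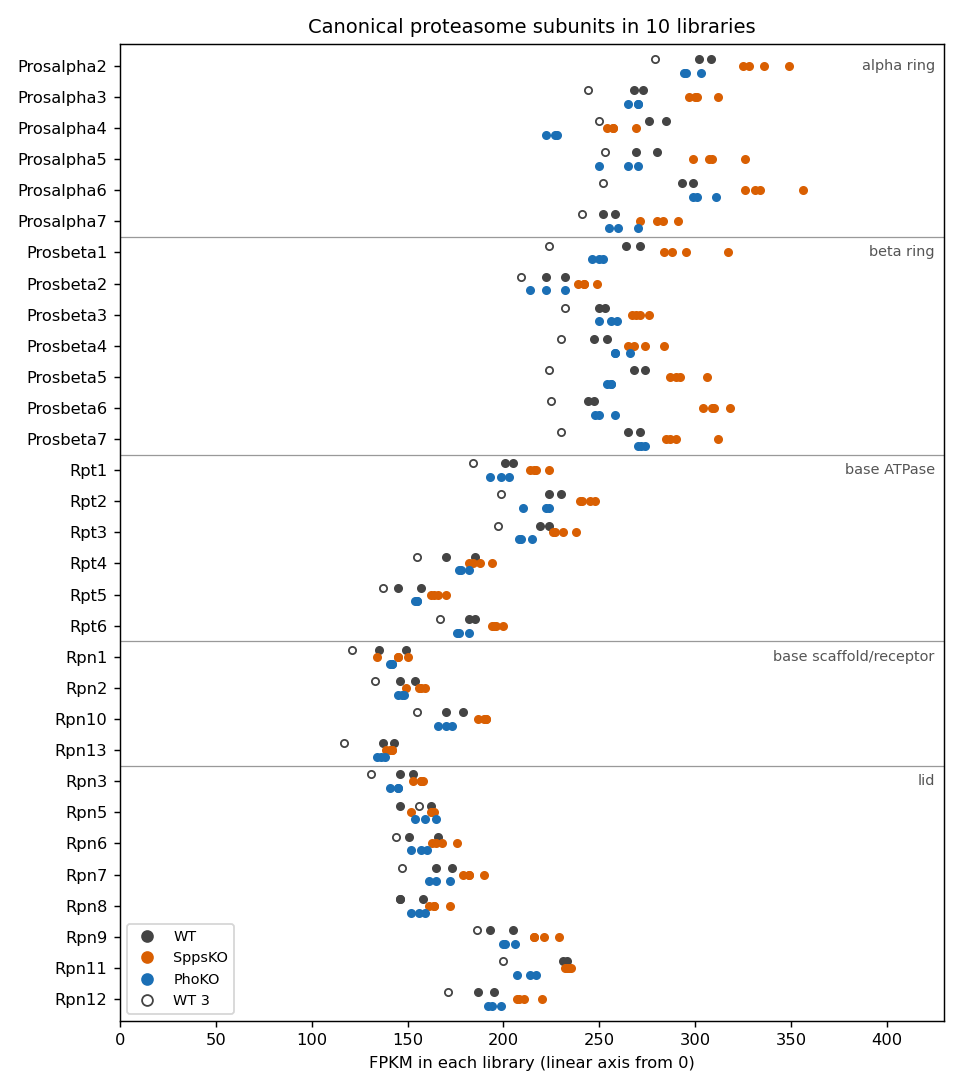
FPKM on a linear axis from 0 for each of the 31 canonical subunits with values above 0; each point is a library, grey for WT (open for WT 3), orange for SppsKO and blue for PhoKO. The core rings (top) lie above most of the cap, and the open points of WT 3 are the lowest of all 10 libraries for 28 of the 31 subunits.

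Prosalpha1, the outer-ring subunit with no value above, was listed at 0 FPKM in all 10 libraries. CG30382, whose current symbol is Prosalpha1R, was also listed at 0 in all 10 libraries. In the gene order of the Release 6 plus ISO1 MT assembly it lies 2 genes from Prosalpha1, with CG18853 between them. Genes that have a near-identical copy can share fragments, so no level is given for either gene.

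The 15 paralogs stood at the opposite end of the table. Their WT median was 0.0225 FPKM, and their summed FPKM made up 0.0635% ± 0.011 (SD, n = 3) of the FPKM of all proteasome genes in WT, 0.0647% ± 0.00148 (SD, n = 4) in SppsKO and 0.0577% ± 0.00198 (SD, n = 3) in PhoKO. Of their 150 values 68 were exactly 0, and the smallest value above 0 was 0.0152 FPKM. Prosalpha6T was at 0 in every library, and 13 of the 15 stayed under 0.3 FPKM throughout. The highest value among those 13 was 0.274 FPKM, for the ATPase paralog Rpt4R in PhoKO 3. The exceptions were Rpt3R and Rpt6R, paralogs of cap ATPases, which together held 88% of the paralogs' summed FPKM over the libraries. Even so Rpt3R reached at most 1.47% of the level of its counterpart Rpt3 in the same library, and Rpt6R at most 0.708% of that of Rpt6.

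**Figure D2:**
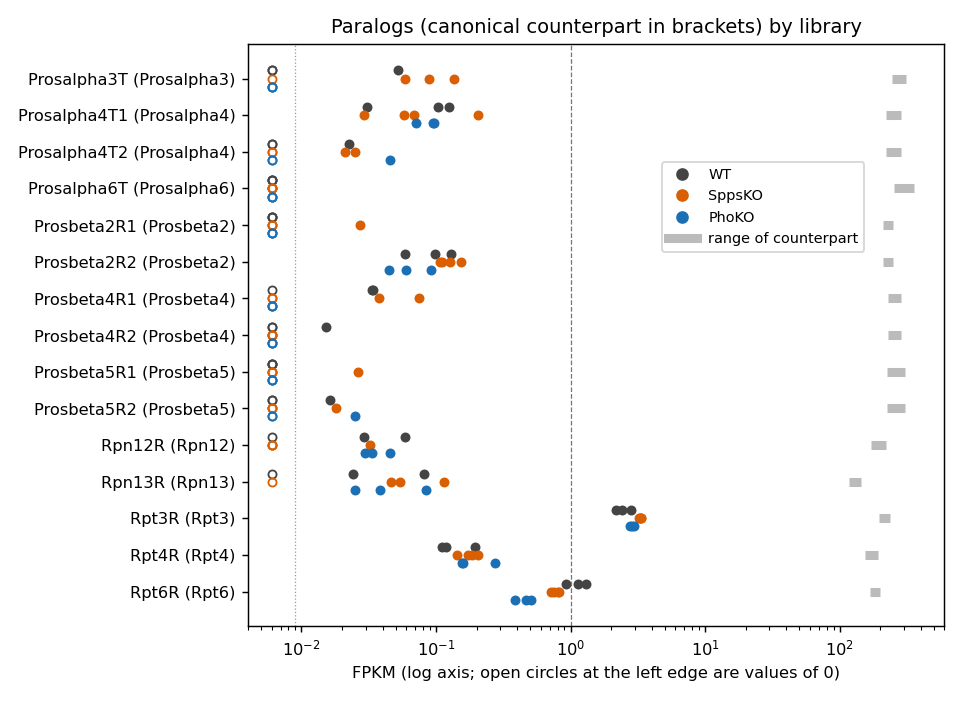
FPKM on a log axis for each paralog by library (grey WT, orange SppsKO, blue PhoKO), with the range of its canonical counterpart as a grey bar; open circles at the left edge are values of 0 and the dashed line marks 1 FPKM. Rpt3R lies between 2.18 and 3.32 FPKM and Rpt6R between 0.385 and 1.31 FPKM, while the counterparts lie above 100 FPKM.

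Markers of the male germ line, where several paralogs are known to be active, were mostly near 0. Of 21 testis genes in the table, 16 were under 1 FPKM in every library, and the summed level of the list was 14.0 to 15.8 FPKM in all 10 libraries. Vha16-2 was at 0 throughout. None of the 3 testis genes that passed the filter was called in any comparison by limma; at an unadjusted p under 0.05 the count was 0 in SppsKO versus WT and 1, higher, in each of the other comparisons. The part of germ line cells in the paralog values was not tested.

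For each comparison, log2(FPKM + 1) was fitted with limma over all genes that had at least 1 FPKM in 3 or more libraries, 9748 in total, and a gene was called at a Benjamini-Hochberg adjusted p under 0.05. Fold changes are on that log2 scale with their SE. Of the proteasome genes 32 were tested, the 31 measured canonical subunits and Rpt3R; the other 15 were below the filter. The WT libraries serve both mutant comparisons, and each mutant group also enters the direct comparison, so the comparisons are not independent of each other.

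In SppsKO the proteasome subunits were slightly but broadly higher than in WT. Of the 32 tested genes 12 rose and 0 fell, against 3.92% of all tested genes called higher and 4.26% called lower. The median fold change of the 31 canonical subunits was 0.16, beside 0.00 for all tested genes, and 30 of the 31 lay above 0. At an unadjusted p under 0.05, 26 of the 32 were higher and 0 lower, where 12.4% of all tested genes were higher and 11.8% lower. The SppsKO libraries all lay above all WT libraries for 23 of the 31 canonical subunits and below them for 0, where 12.2% of all tested genes were separated upwards and 11.8% downwards. In bulk tissue, more RNA of these genes per cell and more cells of a kind that expresses them cannot be told apart. The summed canonical level was 6543, 6735 and 5938 FPKM in the WT libraries and 7089, 7116, 7153 and 7333 FPKM in the SppsKO libraries.

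**Figure D3:**
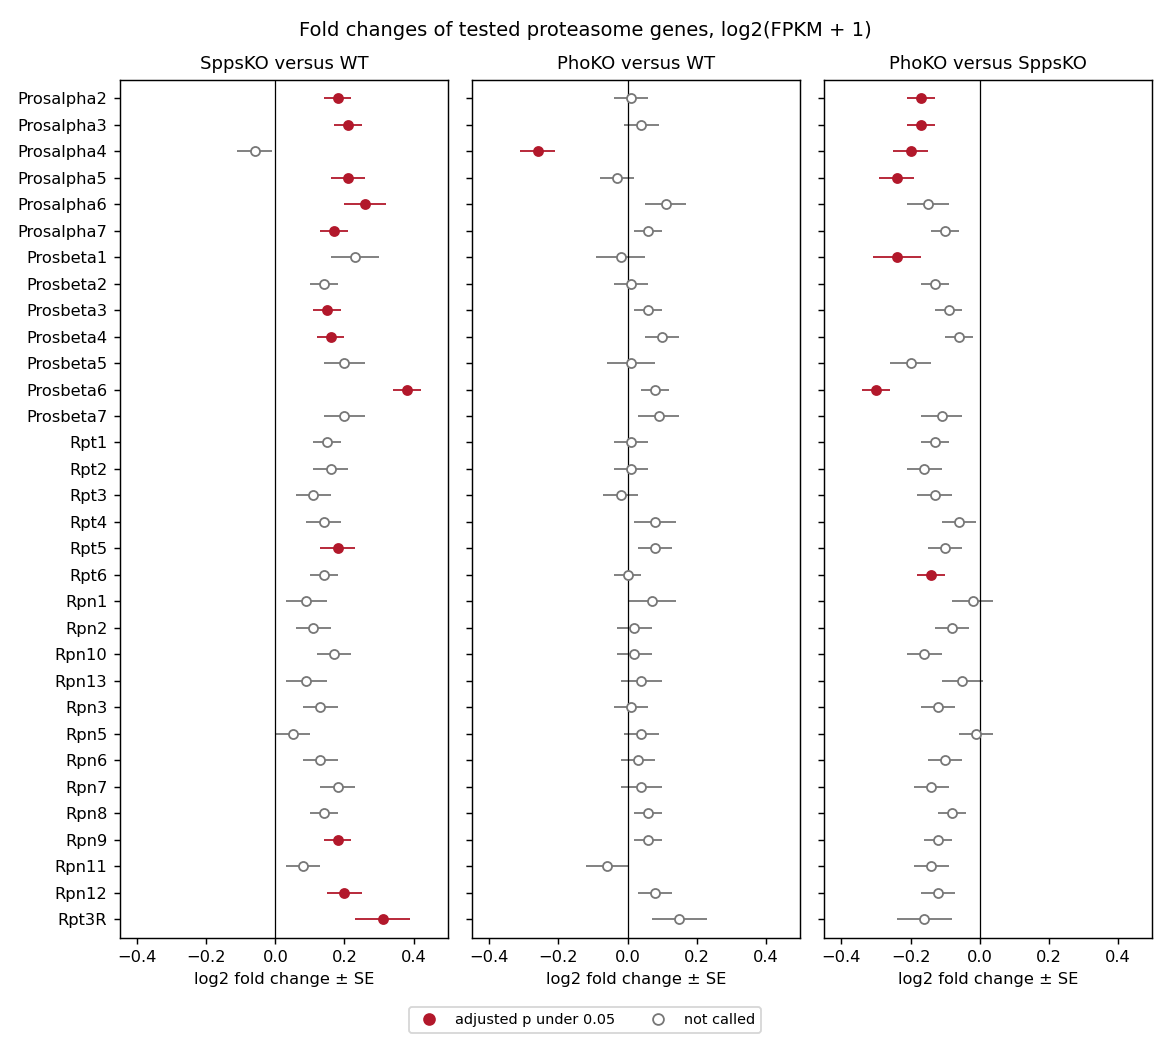
Log2 fold change with SE for the 32 tested proteasome genes in SppsKO versus WT, PhoKO versus WT and PhoKO versus SppsKO; filled red points have an adjusted p under 0.05 and open points do not. In the left panel 12 points are filled and all but Prosalpha4 lie right of 0; in the middle panel only Prosalpha4 is filled, at -0.26; in the right panel 7 are filled and all lie left of 0.

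The largest change in SppsKO among the canonical subunits was that of Prosbeta6, a beta subunit without a proteolytic site of its own. It stood at 244, 247 and 225 FPKM in WT, at 304, 310, 309 and 318 FPKM in SppsKO and at 258, 250 and 248 FPKM in PhoKO. The SppsKO libraries were far above all others, and the PhoKO libraries lay just above the WT range. Prosbeta6 rose by 0.38 (SE 0.04, limma adjusted p = 0.000326) in SppsKO, or 29.9% of the WT mean.

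Among the alpha subunits, 5 of the 6 measured rose, where 3.92% of all tested genes were called higher. Prosalpha3 was at 268, 273 and 244 FPKM in WT and at 301, 300, 297 and 312 FPKM in SppsKO. Prosalpha5 was at 269, 280 and 253 FPKM in WT and at 299, 307, 309 and 326 FPKM in SppsKO. Prosalpha6 was at 299, 293 and 252 FPKM in WT and at 326, 331, 334 and 356 FPKM in SppsKO. For each of these 3 gate-ring subunits every SppsKO library lay above every WT library, and WT 3 was the lowest. Their fold changes were 0.21 (SE 0.04, limma adjusted p = 0.0148), 0.21 (SE 0.05, adjusted p = 0.0231) and 0.26 (SE 0.06, adjusted p = 0.0259). Prosalpha7 rose by 0.17 (limma adjusted p = 0.0281) and Prosalpha2 by 0.18 (adjusted p = 0.0336), from 308, 302 and 279 FPKM to 328, 325, 336 and 349 FPKM. Prosalpha4 stood apart at -0.06 (SE 0.05, adjusted p = 0.492).

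Of the beta subunits, Prosbeta3 and Prosbeta4, which have no proteolytic site, rose by 0.15 (limma adjusted p = 0.0435) and 0.16 (adjusted p = 0.0482), close to the threshold. The catalytic subunits had estimates of the same size but did not pass. Prosbeta1, which cuts after acidic residues, was at 264, 271 and 224 FPKM in WT and at 284, 288, 295 and 317 FPKM in SppsKO (0.23, SE 0.07, limma adjusted p = 0.066). Prosbeta2, which cuts after basic residues, was at 222, 232 and 209 FPKM in WT and at 249, 239, 242 and 242 FPKM in SppsKO (0.14, SE 0.04, limma adjusted p = 0.0829). Prosbeta5, which cuts after hydrophobic residues, was at 274, 268 and 224 FPKM in WT and at 287, 290, 292 and 306 FPKM in SppsKO (0.20, SE 0.06, limma adjusted p = 0.0803). For each catalytic subunit the SppsKO libraries did not overlap WT, and WT 3 was the lowest. For Prosbeta1 and Prosbeta5 the spread within WT came mostly from WT 3.

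In the cap 3 of 18 subunits rose, with a median fold change of 0.14 over the 18. In the core 8 of 13 rose, with a median of 0.20, where 3.92% of all tested genes were called higher. At an unadjusted p under 0.05, 13 of the 18 cap and 12 of the 13 core subunits were higher, where 12.4% of all tested genes were. All 18 cap estimates and 12 of the 13 core estimates lay above 0. Whether core and cap differed was not tested. Rpn9, a lid subunit, was at 193, 205 and 186 FPKM in WT and at 216, 216, 221 and 229 FPKM in SppsKO (0.18, SE 0.04, limma adjusted p = 0.0226). Rpn12, another lid subunit, rose by 0.20 (adjusted p = 0.032), and Rpt5, a base ATPase whose tail helps open the core gate, by 0.18 (adjusted p = 0.0425). The groups did not overlap for these 3 genes. The ubiquitin receptor Rpn10 came just short: it was at 170, 179 and 155 FPKM in WT and at 190, 187, 191 and 191 FPKM in SppsKO (0.17, SE 0.05, limma adjusted p = 0.0506). Rpn11, the lid protease that cuts off the ubiquitin chain, was at 231, 233 and 200 FPKM in WT and at 232, 233, 234 and 235 FPKM in SppsKO (0.08, SE 0.05, limma adjusted p = 0.384), so that WT 1 and WT 2 were level with the mutants. Rpn13 was at 142, 141, 142 and 139 FPKM in SppsKO, inside the WT range of 117 to 143 FPKM (0.09, SE 0.06, limma adjusted p = 0.384).

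The count of called subunits in SppsKO depended on single libraries. WT 3 was the lowest of WT for 30 of the 31 canonical subunits, with a median of -0.16 on the log2 scale against the other WT libraries, where all tested genes had a median of 0.00. PhoKO 1, of similar relative depth, had a median of 0.01 against the other PhoKO libraries. The cause of the low values in WT 3 was not tested. Without WT 3 the SppsKO median was 0.11 with 30 of 31 canonical subunits above 0, and 4 genes were called: Prosalpha3, Prosalpha6, Prosbeta6 and Rpt3R. The count was 5 without WT 1, 6 without SppsKO 1, 2 without SppsKO 2, 2 without SppsKO 3, 4 without SppsKO 4, 6 without PhoKO 2 and 7 without PhoKO 3. Prosbeta6 and Prosalpha3 were called in each of these fits.

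In PhoKO the proteasome genes were close to WT, with a single exception. Of the 32 tested genes 1 fell and 0 rose, where 5.08% of all tested genes were called lower and 4.59% higher. At an unadjusted p under 0.05 there were 1 lower and 0 higher, where 12.5% of all tested genes were lower and 11.1% higher. The canonical median was 0.04, beside -0.00 for all tested genes, with 26 of the 31 above 0; without WT 3 it was -0.03 with 12 of the 31 above 0, so the side of 0 rested on that library. The PhoKO libraries all lay above WT for 2 canonical subunits and below for 1, where 13.7% and 14.5% of all tested genes were so separated. Their summed canonical level was 6538, 6435 and 6555 FPKM, inside the WT range.

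The exception was Prosalpha4, a subunit of the gated outer ring. It stood at 276, 285 and 250 FPKM in WT, at 257, 257, 254 and 269 FPKM in SppsKO and at 227, 222 and 228 FPKM in PhoKO. Every PhoKO library was below every other library, and the SppsKO libraries lay inside the WT range. The gene fell by 0.26 in PhoKO (SE 0.05, limma adjusted p = 0.0111), or by 16.5% of the WT mean. It was called whichever of the 10 libraries was left out, with adjusted p-values up to 0.0474, but not when only the 6 WT and PhoKO libraries were fitted.

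The PhoKO estimates with the next lowest adjusted p-values were small and none was called. Prosbeta4 was at 247, 254 and 230 FPKM in WT and at 266, 258 and 258 FPKM in PhoKO (0.10, SE 0.05, limma adjusted p = 0.239), and Prosbeta6 had 0.08 (SE 0.04, adjusted p = 0.295). Prosalpha6 was at 299, 301 and 311 FPKM in PhoKO (0.11, SE 0.06, limma adjusted p = 0.326), overlapping WT. Rpn12 was at 187, 195 and 171 FPKM in WT and at 194, 192 and 199 FPKM in PhoKO (0.08, SE 0.05, limma adjusted p = 0.372), also overlapping. The catalytic subunits had estimates of -0.02 for Prosbeta1, 0.01 for Prosbeta2 and 0.01 for Prosbeta5. Rpn11 had -0.06, Rpn10 had 0.02 and Rpn13 had 0.04, each with an SE of 0.05 to 0.06.

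Set against each other, the mutants differed. In PhoKO versus SppsKO 7 of the 32 tested genes were lower and 0 higher, where 7.12% of all tested genes were called lower and 7.24% higher. At an unadjusted p under 0.05, 21 were lower and 0 higher, where 15.8% of all tested genes were lower and 14.9% higher. The median of the 31 canonical subunits was -0.13, beside -0.01 for all tested genes, and all 31 lay below 0. The PhoKO libraries were all below the SppsKO libraries for 27 of the 31 and above for 0, where 16.7% and 14.7% of all tested genes were so separated. This comparison takes its means from no WT library, although the WT libraries share in its estimate of the spread.

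The called genes were mainly core subunits, 6 of 13, with Rpt6 the only called member among the 18 of the cap. Of all tested genes 7.12% were called lower. At an unadjusted p under 0.05, 11 of the 13 core and 10 of the 18 cap subunits were lower, where 15.8% of all tested genes were. Prosbeta6 had the lowest adjusted p: at 258, 250 and 248 FPKM in PhoKO against 304 to 318 FPKM in SppsKO, its log2 fold change was -0.30 (SE 0.04, limma adjusted p = 0.00116). Prosalpha5 was at 250, 265 and 270 FPKM in PhoKO, below the 299 to 326 FPKM of SppsKO (-0.24, SE 0.05, limma adjusted p = 0.00907). Prosalpha4 had -0.20 (SE 0.05, limma adjusted p = 0.0213). For these 3 genes no PhoKO library reached the lowest SppsKO library.

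Prosalpha3 was at 270, 265 and 270 FPKM in PhoKO (-0.17, SE 0.04, limma adjusted p = 0.0257), and Prosalpha2 was at 303, 294 and 295 FPKM (-0.17, SE 0.04, adjusted p = 0.0265). Prosbeta1 was at 250, 246 and 252 FPKM in PhoKO, the only catalytic subunit called (-0.24, SE 0.07, limma adjusted p = 0.0363). Rpt6, an ATPase of the base, was at 182, 185 and 167 FPKM in WT, at 200, 196, 194 and 195 FPKM in SppsKO and at 177, 176 and 182 FPKM in PhoKO (-0.14, SE 0.04, limma adjusted p = 0.0467). All 4 genes were separated between the mutants, with PhoKO inside the WT range. Prosbeta2 at 232, 214 and 222 FPKM (-0.13, adjusted p = 0.0788) and Prosbeta5 at 256, 254 and 256 FPKM in PhoKO (-0.20, limma adjusted p = 0.0646) did not pass, nor did Rpn10 at 166, 170 and 173 FPKM (-0.16, limma adjusted p = 0.0531) or Rpn11 at 217, 207 and 214 FPKM (-0.14, limma adjusted p = 0.109). Rpn13 at 136, 134 and 138 FPKM had -0.05 (limma adjusted p = 0.591). The count of lower genes was 19 without WT 3, 4, 3, 4 and 3 without SppsKO 1, 2, 3 and 4, and 2, 2 and 3 without PhoKO 1, 2 and 3; Prosbeta6 and Prosalpha5 were called in all of these fits.

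A value that does not depend on the overall level is each subunit's share of the summed canonical FPKM of its library. By this measure Prosalpha4 and Prosbeta6 were singled out after their values were seen, so their shares are a description with no test. Prosalpha4 made up 4.23%, 4.23% and 4.21% of the sum in WT, 3.63%, 3.61%, 3.55% and 3.67% in SppsKO and 3.47%, 3.45% and 3.48% in PhoKO. Its share was thus lower in every mutant library, by 14.4% of the WT share in SppsKO and 17.8% in PhoKO, including SppsKO, where its FPKM overlapped WT. Prosbeta6 made up 3.73%, 3.66% and 3.80% in WT, 4.29%, 4.35%, 4.31% and 4.34% in SppsKO and 3.94%, 3.89% and 3.79% in PhoKO. Its share was 15.9% above WT in SppsKO, while PhoKO overlapped WT. The shares of the other 29 subunits moved by between -7.85% and 6.79% of the WT share in SppsKO and between -5.45% and 6.21% in PhoKO. In PhoKO several of them moved by more than the 3.81% of Prosbeta6, among them Prosalpha6 (6.21%) and Rpn11 (-5.45%), without overlap with WT.

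**Figure D4:**
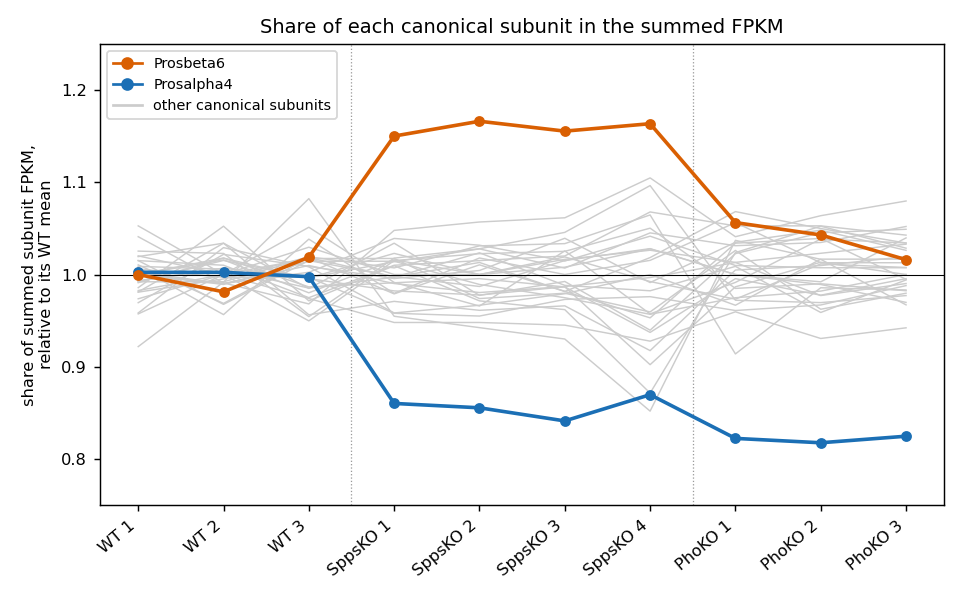
Each canonical subunit's share of the summed canonical FPKM of a library, divided by its mean WT share, for the 10 libraries in order; orange is Prosbeta6, blue Prosalpha4 and grey the other 29 subunits. Prosbeta6 rises above the grey lines in the 4 SppsKO libraries, and Prosalpha4 lies under nearly all of them in all 7 mutant libraries; in SppsKO 4 a grey line lies lower.

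Across the genotypes the measurable paralogs did not share a direction. Rpt3R was at 2.40, 2.18 and 2.82 FPKM in WT, at 3.32, 3.24, 3.32 and 3.27 FPKM in SppsKO and at 2.85, 2.74 and 2.96 FPKM in PhoKO. It was highest in SppsKO, with no overlap with either other group, and it was not lowest in WT 3, unlike its counterpart Rpt3. It rose by 0.31 in SppsKO (SE 0.08, limma adjusted p = 0.0409). Its estimates were 0.15 in PhoKO versus WT (SE 0.08, adjusted p = 0.306) and -0.16 in PhoKO versus SppsKO (SE 0.08, limma adjusted p = 0.211). The counterpart Rpt3 had 0.11 (adjusted p = 0.171), -0.02 (limma adjusted p = 0.902) and -0.13 (adjusted p = 0.0939) in the same comparisons.

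Rpt6R, in contrast, was highest in WT. It was at 0.931, 1.31 and 1.14 FPKM in WT, at 0.747, 0.716, 0.811 and 0.822 FPKM in SppsKO and at 0.385, 0.504 and 0.464 FPKM in PhoKO. The groups formed separate steps, with WT highest and PhoKO lowest. The PhoKO mean was 40% of WT, the SppsKO mean was 68.6% of WT, and PhoKO stood at 58.3% of SppsKO. Rpt6R reached 1 FPKM in 2 libraries, WT 2 and WT 3, and was therefore below the filter. Since Rpt6R is described in full because it reached 1 FPKM there, the levels and percentages above are a description with no test. An alternative limma fit of all genes above 0 included 14 of the 15 paralogs whatever their level, Rpt6R among them. Its calls are secondary to the main fit, which did not test Rpt6R. In PhoKO versus WT the alternative fit called 1 paralog lower, Rpt6R (-0.55, SE 0.08, limma adjusted p = 0.00434), and 0 higher. Of all genes in that fit 3.22% were called lower and 3.15% higher. In SppsKO versus WT it called 1 higher, Rpt3R, and 0 lower, where 2.26% and 2.77% of all genes were called, with Rpt6R at -0.26 (SE 0.08, limma adjusted p = 0.0925). In PhoKO versus SppsKO it called 1 lower, Rpt6R (-0.29, SE 0.08, limma adjusted p = 0.0464), and 0 higher, where 4.14% and 4.99% of all genes were called. Its counterpart Rpt6 had 0.00 in PhoKO versus WT. Rpt4R had 0.118, 0.111 and 0.196 FPKM in WT, 0.173, 0.204, 0.143 and 0.184 FPKM in SppsKO and 0.158, 0.155 and 0.274 FPKM in PhoKO, and all its groups overlapped.

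Some genes that work with the proteasome were called as well. Of 11 tested partners (chaperones of assembly, activators, shuttle receptors and bound deubiquitinases), 3 rose in SppsKO, against 3.92% of all tested genes. These were Txl, a thioredoxin-like protein bound to the cap (0.20, SE 0.05, limma adjusted p = 0.0307), CG5384, whose current symbol is Usp14, a deubiquitinase of the base (0.13, SE 0.03, adjusted p = 0.0405), and Uch-L5, a deubiquitinase held by Rpn13 (0.18, SE 0.05, adjusted p = 0.0448). The partners' median was 0.10 with all 11 above 0. In PhoKO versus WT limma called 0 of the 11. At an unadjusted p under 0.05, 1 was higher and 1 lower, where 11.1% and 12.5% of all tested genes were. In PhoKO versus SppsKO 2 of the 11 were lower, against 7.12% of all tested genes. Sem1, a small lid subunit outside the naming rule, and Txl had fold changes of -0.21 (limma adjusted p = 0.028) and -0.18 (adjusted p = 0.0357).

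Upstream of the proteasome, the most changed gene was Ubi-p5E, which encodes a chain of ubiquitin repeats. Its mean was 318 ± 27.5 FPKM in WT (SD, n = 3), 199 ± 4.44 FPKM in SppsKO (SD, n = 4) and 114 ± 8.28 FPKM in PhoKO (SD, n = 3). It fell by 0.67 in SppsKO (SE 0.06, limma adjusted p = 0.000173) and by 1.47 in PhoKO (SE 0.07, adjusted p = 1.14e-06). Its repeats resemble those of the other polyubiquitin gene, so its level is uncertain. Of the other 10 ubiquitin and E1 genes tested, Uba1, the ubiquitin-activating enzyme, rose by 0.13 in SppsKO (SE 0.03, limma adjusted p = 0.0409), and RpL40, a ribosomal protein made as a ubiquitin fusion, rose by 0.16 in PhoKO (SE 0.04, adjusted p = 0.0428). Uba3, an activating enzyme for Nedd8, was lower in PhoKO than in SppsKO (-0.14, limma adjusted p = 0.0245).

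Of 14 tested E2 conjugating enzymes limma called 0 in SppsKO versus WT. At an unadjusted p under 0.05, 1 was higher and 1 lower, where 12.4% and 11.8% of all tested genes were. In PhoKO vih, the E2 of mitotic cyclin destruction, was among those that fell, by 0.14 (SE 0.03, limma adjusted p = 0.0221). In PhoKO versus SppsKO 4 of the 14 were lower and 0 higher, where 7.12% and 7.24% of all tested genes were called. Of 7 genes of the TER94 segregase, which pulls ubiquitinated proteins out of complexes for the proteasome, 0 were called in either comparison with WT, although at an unadjusted p under 0.05 there were 6 higher in SppsKO, where 12.4% of all tested genes were, and 0 in PhoKO. TER94 itself was lower in PhoKO than in SppsKO (-0.12, limma adjusted p = 0.0375).

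The transcription factor cnc, the fly relative of the mammalian factors that raise proteasome gene transcription when proteasome activity is short, was at 36.0 ± 0.994 FPKM in WT (SD, n = 3), 34.0 ± 0.992 FPKM in SppsKO (SD, n = 4) and 32.1 ± 1.73 FPKM in PhoKO (SD, n = 3). It was not called in SppsKO (-0.08, SE 0.04, limma adjusted p = 0.302) or in PhoKO (-0.16, SE 0.05, adjusted p = 0.0566). Among the 9 tested genes of its list, which holds its partners and other known targets, 0 were called in SppsKO (0 higher and 1 lower at an unadjusted p under 0.05). In PhoKO 1 fell, Gclc of glutathione synthesis, by 0.35 (SE 0.08, limma adjusted p = 0.0246). In PhoKO versus SppsKO Gclc and Trxr-1, a thioredoxin reductase, were lower. Over all tested genes limma called 3.92% higher and 4.26% lower in SppsKO versus WT, and 4.59% and 5.08% in PhoKO versus WT. In PhoKO versus SppsKO 7.24% were called higher and 7.12% lower. At an unadjusted p under 0.05, 12.4% were higher and 11.8% lower in SppsKO versus WT.

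Other complexes of many subunits show how far the pattern was shared. The CCT chaperonin, which folds actin and tubulin, had a median of 0.15 in SppsKO over its 8 genes, all above 0. Limma called CG5525 (current symbol CCT4) higher (0.22, SE 0.05, adjusted p = 0.0396). At an unadjusted p under 0.05 all 8 were higher in SppsKO. For all 8 the SppsKO libraries lay above all WT libraries, where 12.2% of all tested genes were so separated. The CCT median was -0.01 in PhoKO versus WT, with 0 called by limma and 1 gene in each direction at an unadjusted p under 0.05. It was -0.15 in PhoKO versus SppsKO, with 4 lower and 0 higher. The CCT values thus lay near those of the proteasome, and in WT 3 too the CCT median was low, at -0.19. The 80 tested cytosolic ribosomal protein genes had medians of 0.03, 0.04 and 0.02 in the same order of comparisons, and -0.01 in WT 3. Of these, 0 were called in SppsKO by limma (5 higher and 1 lower at an unadjusted p under 0.05), and in PhoKO 3 rose and 1, RpS5b, fell (-1.39). The 72 mitochondrial ribosomal protein genes had medians of 0.08, -0.02 and -0.10. Limma called 4 higher and 0 lower in SppsKO and 3 higher and 5 lower in PhoKO, with 9 lower in PhoKO versus SppsKO. In SppsKO versus WT 57 of the 72 lay above 0, with 21 higher and 2 lower at an unadjusted p under 0.05. In PhoKO versus WT 5 were higher and 11 lower at that level. In PhoKO versus SppsKO 61 lay below 0, with 27 lower and 3 higher, where 15.8% and 14.9% of all tested genes were. Over all tested genes, limma called 3.92% higher and 4.26% lower in SppsKO versus WT. The shares were 4.59% and 5.08% in PhoKO versus WT, and 7.24% and 7.12% in PhoKO versus SppsKO. At an unadjusted p under 0.05 they were 12.4% and 11.8% in SppsKO versus WT, and 11.1% and 12.5% in PhoKO versus WT. No test was made between complexes. The residual SD within groups had a median of 0.0598 on the log2 scale for the canonical subunits, 0.0642 for the cytosolic ribosome, 0.0716 for CCT and 0.0725 for the mitochondrial ribosome, beside 0.0876 for all tested genes.

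**Figure D5:**
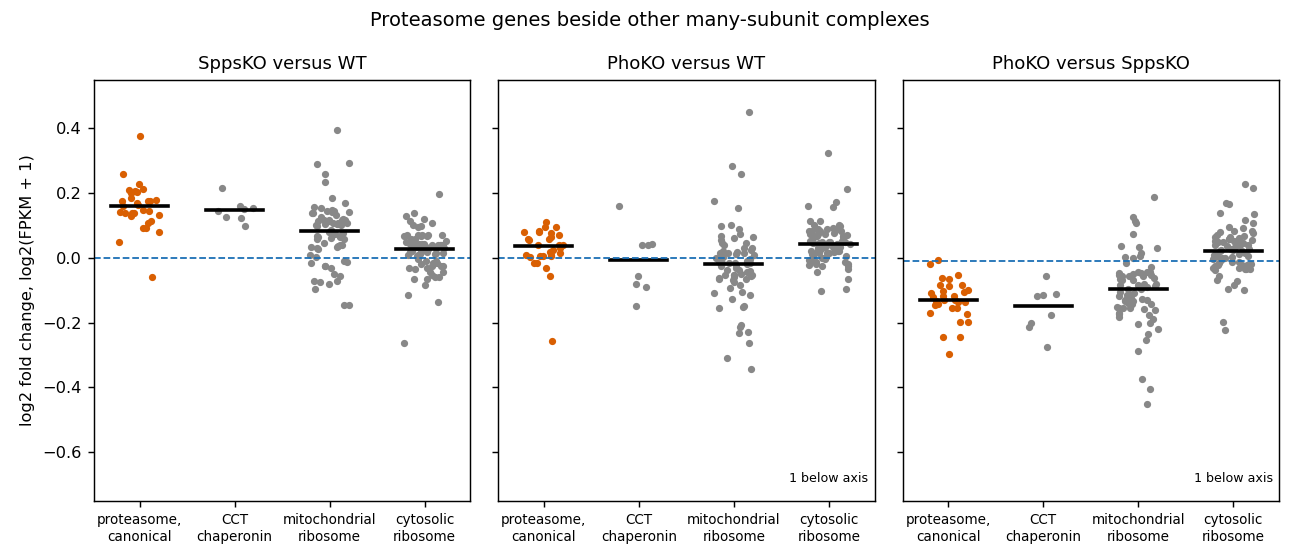
Log2 fold change of each tested gene of 4 complexes (orange, canonical proteasome; grey, CCT chaperonin, mitochondrial ribosome and cytosolic ribosome) in the 3 comparisons; black bars are medians and the dashed line is the median of all tested genes. Proteasome and CCT genes lie at medians of 0.16 and 0.15 in SppsKO versus WT and of -0.13 and -0.15 in PhoKO versus SppsKO; RpS5b, at -1.39 and -1.13 in the panels with PhoKO, lies under the axis and is not drawn.

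Markers of some other cell types moved with the genotype. In SppsKO 6 of 10 hemocyte genes fell. Of these the prophenoloxidases PPO2 (-2.47) and PPO1 (-2.48) and the matrix peroxidase Pxn (-0.54) had the lowest adjusted p-values. At an unadjusted p under 0.05, 7 of the 10 were lower and 2, NimC1 (0.38) and lz (0.19), were higher. The summed level of the hemocyte list was 90.3 to 144 FPKM in SppsKO, against 210 to 334 FPKM in WT and 175 to 254 FPKM in PhoKO. Of 9 ring gland genes 3 of steroid synthesis, sro (-0.87), spok (-0.32) and nvd (-0.47), fell in SppsKO (summed 277 to 348 FPKM against 347 to 375 FPKM in WT and 354 to 422 FPKM in PhoKO). In PhoKO 6 of 10 glial genes rose, among them nrv2 (0.41), repo (0.33) and axo (0.34) (summed 370 to 464 FPKM against 324 to 353 FPKM in WT and 312 to 328 FPKM in SppsKO). Muscle genes were at 121 to 231 FPKM in SppsKO, 348 to 365 FPKM in WT and 231 to 810 FPKM in PhoKO, with 0 of 11 called by limma against WT (at an unadjusted p under 0.05, 4 were lower in SppsKO and 0 in PhoKO). Salivary gland genes ranged from 82.3 to 6675 FPKM and fat body genes from 741 to 5447 FPKM over the 10 libraries, and Sgs4 of the salivary gland fell in PhoKO (-5.77). No neuronal gene was called against WT by limma (2 lower in SppsKO and 1 lower in PhoKO at an unadjusted p under 0.05). The neuronal median was -0.25 in SppsKO versus WT, with 10 of 11 genes below 0, and 0.02 in PhoKO versus WT, with 6 above and 5 below. In PhoKO versus SppsKO it was 0.27, with all 11 above 0. Of the 14 disc genes wg (0.23) rose and ap (-0.32) fell in SppsKO, and eya (0.42) and so (0.36) rose in PhoKO. The glial gene gcm (0.40) rose in SppsKO and the hemocyte gene NimC1 (1.64) in PhoKO. Over all tested genes limma called 3.92% higher and 4.26% lower in SppsKO versus WT, and 4.59% higher and 5.08% lower in PhoKO versus WT. At an unadjusted p under 0.05 the shares were 12.4% and 11.8% in SppsKO versus WT, and 11.1% and 12.5% in PhoKO versus WT. The part of the listed cell types in the proteasome values was not tested.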

How the data were processed

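RNA-Seq of 10 libraries was used. The deposited table gives FPKM per gene, normalized across libraries by the authors. Per the submitters' processing notes, the tools of the series include TopHat2 2.1.1, Cufflinks and Cuffnorm, with the builds dm3 and BDGP5. Which strand was counted, and against which annotation release, is not given in the sources used here. Per the labels' protocols, 12 libraries made with a strand-keeping kit were sequenced in the same run. The series' 42 ChIP-Seq samples were not analysed here.

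Computed here were log2(FPKM + 1), a filter of 1 FPKM in at least 3 libraries, and 1 fit of all 10 libraries in limma 3.58.1 under R 4.3.3 (trended, robust eBayes), with Benjamini-Hochberg adjustment over 9748 genes within each comparison. The fit was tested on simulated data. Single values were compared by exact permutation tests in scipy 1.17.1. Fold changes on this scale understate changes of low genes.

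Named with full values were Spps, pho, the catalytic subunits, Rpn10, Rpn11, Rpn13, the 6 tested members of lowest adjusted p in each comparison, those of highest and lowest WT level, paralogs reaching 1 FPKM, and up to 3 called genes per list and comparison with WT. Other members named, such as Rpt4R, Prosalpha7, Prosbeta3, Rpt5 and Rpt6, and genes named only for PhoKO versus SppsKO were added after their values were seen. Ribosomal genes are given by count. A called gene of the lists is not reported here. The members and 15 gene lists (165 of 171 symbols found) were chosen with earlier results of these data known. Alternatives were other pseudocounts, filters, scalings, fits and left-out libraries. Release 6 served only for names and gene order.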

Additional observations from a re-analysis of the deposited data

How the results depend on the processing

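Among the 46 named fold changes, 691 of 871 alternative values kept direction and side of the threshold, 145 lost the call, 19 gained it and 16 turned sign. Prosbeta6 was called higher in SppsKO and lower in PhoKO than in SppsKO under every alternative run. The count of higher genes in SppsKO (12) was 4 with only the 2 groups compared, 4 without WT 3 and PhoKO 1 together, and 2 to 15 over the fits that each left out a library. In PhoKO versus WT, quantile normalization added 1 higher gene (Prosbeta4), the fit with no filter gave 2 lower genes (adding Rpt6R), and the fit of only the 2 groups gave 0 lower (Prosalpha4 lost). Each fit that left out a library gave 1 lower there. The count lower in PhoKO than in SppsKO (7) was 3 with quantile normalization, 17 with only those 2 groups, 13 without WT 3 and PhoKO 1, and 2 to 19 with a library left out. The causes were not tested.

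All sign changes were in uncalled PhoKO versus WT estimates near 0: with quantile normalization Prosbeta1 gave 0.04 and Rpn11 gave 0.00. Without WT 3 and PhoKO 1, Prosbeta2 gave -0.06, Prosbeta5 -0.09, Rpn10 -0.02, Rpn13 -0.05 and Prosalpha2 -0.05. With a library left out the ranges were -0.10 to 0.04 for Prosbeta1, -0.06 to 0.05 for Prosbeta2, -0.09 to 0.06 for Prosbeta5, -0.04 to 0.07 for Rpn10, -0.05 to 0.10 for Rpn13 and -0.05 to 0.03 for Prosalpha2. Under quantile normalization 3 canonical subunits lay above 0 in PhoKO versus SppsKO and 30 in PhoKO versus WT.

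With the replicate number as a block, the counts were 1 (Prosbeta6) in SppsKO, 1 (Prosalpha4) in PhoKO versus WT and 2 (Prosalpha5 and Prosbeta6) in PhoKO versus SppsKO. Same-numbered libraries had correlations of -0.377 to 0.11 in their deviations, and differently numbered libraries of -0.314 to 0.392. Deviations within such small groups are tied to each other. These correlations therefore cannot decide whether same-numbered libraries share a cross or a day.

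Total depth is unknown, so paralog values under 0.3 FPKM are given without an estimate of their counting error.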

Other observations

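The genes beside the subunits that stood out were read after those subunits' values were seen, in the gene order of the Release 6 plus ISO1 MT assembly. Next but 1 to Prosalpha4 lies kat80, which encodes a regulatory subunit of the microtubule-severing enzyme katanin. Its mean was 30.2 ± 0.0854 FPKM in WT (SD, n = 3), 21.9 ± 0.185 FPKM in SppsKO (SD, n = 4) and 21.2 ± 0.497 FPKM in PhoKO (SD, n = 3), and it fell by 0.45 in SppsKO (SE 0.03, limma adjusted p = 1.61e-05) and by 0.49 in PhoKO (SE 0.03, adjusted p = 1.45e-05). The gene between them, Mfe2, had 0.09 in both comparisons and was not called. On the other side eas rose by 0.20 in SppsKO (SE 0.04, limma adjusted p = 0.012) and CG32576 was not called.

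Beside Prosbeta6, Su(P) was at 32.4 ± 1.63 FPKM in WT and 32.4 ± 1.96 FPKM in SppsKO, and was not called. On its other side CG4098 fell by 0.26 in PhoKO versus WT (SE 0.05, limma adjusted p = 0.0164) and was lower in PhoKO than in SppsKO (-0.38, SE 0.05, adjusted p = 0.0013). The genes within 2 places of Rpt3R were not called in any comparison, nor were the tested genes within 2 places of Rpt6R. Next to Prosalpha1, phr, a DNA photolyase gene, fell by 0.99 in SppsKO (SE 0.07, limma adjusted p = 3.78e-05), and CG30383, 2 places away, rose by 0.62 (SE 0.09, adjusted p = 0.00314).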
